A study of Mus musculus with 2 samples.

Results

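The SOX genes encode transcription factors that bind DNA through a shared domain, the HMG box, which bends the double helix at its site. Described here are 10 of the 32285 features in the count tables, namely Sox1, Sox2, Sox3, Sox4, Sox5, Sox6, Sox8, Sox9, Sox11 and Sox21. They were chosen by gene symbol, as the family members known from neurons, glia and their precursors, and not by their values. All 10 were found in both tables and passed the filter on low counts in every fit. Sox1, Sox2 and Sox3 (group B1) are known for keeping neural precursors undifferentiated, and Sox21 (group B2) for opposing them. Sox4 and Sox11 (group C) are known for switching on genes of young neurons. Sox8 and Sox9 (group E) act in glial fate, and Sox5 and Sox6 (group D), which lack an activation domain of their own, act as modulators of the other groups.

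Cells came from fresh mouse brain, strain given as C57BL/J, at postnatal day 10, when gliogenesis and some neurogenesis continue. There were 2 libraries of 1 group, with no treatment, mutation or control, so every comparison is between cell classes. The series names 6 mice without tying any of them to a library. The p-values therefore measure only how far differences between classes vary between these 2 libraries, which may be technical. The tissue label is brain with no region, so which parts of the brain gave which cells cannot be read from the labels.

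Library 1 held 12978 barcodes with 51452085 unique molecular identifiers (UMIs, 1 per captured RNA molecule), and library 2 held 19508 barcodes with 45532691. After limits on quality and removal of doublets, library 1 kept 11992 cells (median 3426 UMIs) and library 2 kept 14121 (median 1910 UMIs). The stripped barcode letters of 90 barcodes occurred in both libraries. Cells were clustered without any SOX gene, so a SOX level was not used to draw a class. Of 28 clusters, 24 were named from marker lists and merged into 16 classes. The unnamed ones included 2 clusters of low UMI count that came almost only from library 2 and enter no comparison. The other 2 unnamed clusters came from both libraries and are called here by their leading genes, Ttr and Crym (768 and 175 cells) and Helt and Dll1 (631 and 314 cells). The first scored highest for the markers of choroid plexus epithelium and next for those of astrocytes, and Aldoc, an astrocyte marker, was among its 10 leading genes. Egfr and Olig1 were also among the leading genes of the second.

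Levels below are CPM, the UMIs of a gene summed over a class within a library and scaled to a class total of 1e+06, given as library 1 then library 2. The kit counts 1 tag at the 3′ end of a molecule, so CPM was not divided by gene length. How well an end is captured can differ between genes, so shares among the 10 genes are shares of UMIs.

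The start of the HMG box is shown for 3 pairs of close relatives. Sox2 with Sox3 and Sox8 with Sox9 were picked because their log2 fold changes had opposite signs in at least 1 comparison below. Sox4 and Sox11 were picked because each had its 2 highest levels in the same neuronal classes. The first 90 bases of the box are given 5′ to 3′ on the coding strand, from GENCODE M21 transcripts on GRCm38. Capitals mark the 36 bases that were identical in all 10 members.
Sox2: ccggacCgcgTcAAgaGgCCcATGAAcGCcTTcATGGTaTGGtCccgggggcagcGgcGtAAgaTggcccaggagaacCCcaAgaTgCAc
Sox3: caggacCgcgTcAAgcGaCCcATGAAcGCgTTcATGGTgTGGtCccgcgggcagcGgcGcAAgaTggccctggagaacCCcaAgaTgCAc
Sox4: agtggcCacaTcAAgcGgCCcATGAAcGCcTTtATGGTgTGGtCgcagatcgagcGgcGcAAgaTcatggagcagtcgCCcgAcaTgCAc
Sox11: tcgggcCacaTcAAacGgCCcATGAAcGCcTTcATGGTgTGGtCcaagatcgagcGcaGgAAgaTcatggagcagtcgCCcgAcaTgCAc
Sox8: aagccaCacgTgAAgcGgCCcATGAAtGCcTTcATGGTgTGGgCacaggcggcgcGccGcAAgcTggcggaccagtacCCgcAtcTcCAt
Sox9: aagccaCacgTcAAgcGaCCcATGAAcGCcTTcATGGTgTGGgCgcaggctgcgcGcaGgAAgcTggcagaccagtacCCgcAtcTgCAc

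These stretches lie at chr3:34650533-34650622 (Sox2, plus strand), chrX:60892921-60893010 (Sox3, minus), chr13:28952767-28952856 (Sox4, minus), chr12:27342184-27342273 (Sox11, minus), chr17:25570148-25570237 (Sox8, minus) and chr11:112782888-112782977 (Sox9, plus). Sox2, Sox3, Sox4 and Sox11 have 1 exon, and the stretch lies in exon 1 of 3 of Sox8 and of Sox9. Over the whole box of 237 bases, genes of the same group were 82.7% to 89.0% identical over 6 pairs, with a median of 87.8%. Sox21 was 86.1% to 87.3% identical to the 3 genes of group B1. The other 36 pairs, of different groups, shared 53.2% to 73.0% of bases. Sox4 and Sox11 shared 88.2% of the bases, and Sox8 and Sox9 shared 86.5%.

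Sox4 and Sox11 carried most of the SOX UMIs of the neuronal classes. Sox11 stood at 3120 and 3015 CPM in excitatory neuron-like cells and at 2775 and 2754 CPM in neuroblast-like cells, which express Dlx genes. In neural progenitor-like cells it was 1683 and 1572 CPM, and in glutamatergic intermediate progenitor-like cells, marked by Eomes, 1646 and 1687 CPM. The glial classes were far lower: astrocyte-like cells had 173 and 153 CPM of Sox11 and oligodendrocyte precursor-like cells 209 and 256 CPM. Pericyte-like cells, outside the neural lineage, had 169 and 130 CPM of Sox11. The larger cluster of this class (530 and 69 cells) was led by Acta2 and Tagln, markers of smooth muscle. By the mean log2 ratio of markers to other clusters it scored 6.556 for pericyte and 5.467 for smooth muscle. Sox11 levels of neuroblast-like and excitatory neuron-like cells did not overlap those of astrocyte-like, ependymal-like and oligodendrocyte precursor-like cells in either library. Sox4 was 1591 and 1450 CPM in neuroblast-like cells, 1380 and 1276 CPM in excitatory neuron-like cells and 699 and 619 CPM in neural progenitor-like cells. Its lowest level among the 9 neural classes and clusters set in order here was 122 and 157 CPM, in ependymal-like cells. For Sox4 none of the 8 neighbouring pairs in that order overlapped between libraries. For Sox11, oligodendrocyte precursor-like, ependymal-like and astrocyte-like cells and the Ttr and Crym cluster, all below the Helt and Dll1 cluster, overlapped in turn. Oligodendrocyte precursor-like cells were the highest of these in each library, and the order of the others was not resolved.

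**Figure D1:**
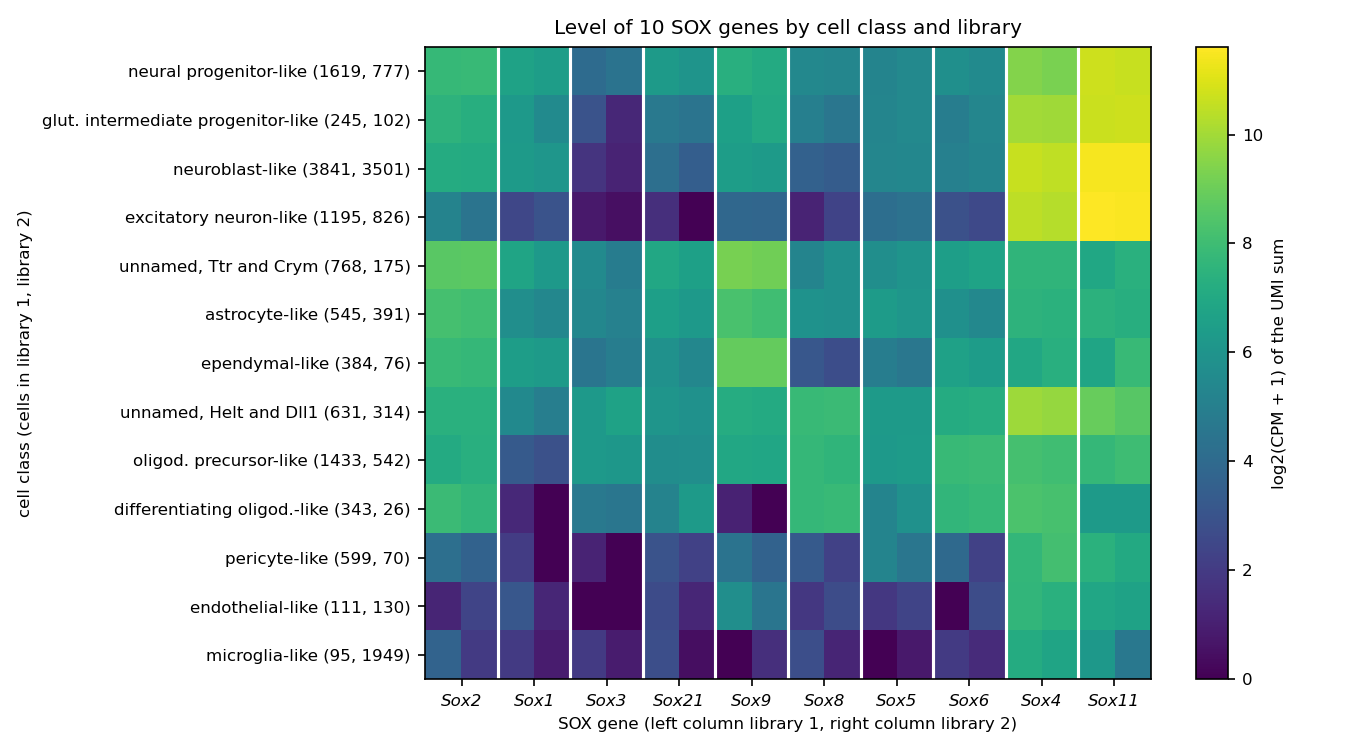
Level of each SOX gene, as log2(CPM + 1) of the UMI sum (colour), by cell class (rows, with cells in library 1 and 2) and gene (columns, library 1 left and library 2 right). Sox4 and Sox11 are bright in the 4 upper rows, Sox9 is brightest in the 3 rows from the Ttr and Crym cluster to ependymal-like cells, and Sox8 is brightest in the Helt and Dll1 cluster and the rows of oligodendrocyte precursor-like and differentiating oligodendrocyte-like cells.

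As a share of the UMIs of the 10 genes, Sox4 and Sox11 made up 30.1% and 68.1% in excitatory neuron-like cells of library 1 and 29.3% and 69.1% in library 2. The next gene, Sox2, made up 0.77% and 0.48%. In astrocyte-like cells no gene stood out so far: Sox9 held 23.1% and 22.5% and Sox2 held 21.9% and 22.8%. In oligodendrocyte precursor-like cells Sox4, Sox6, Sox8 and Sox11 held between 13.3% and 20.7% each. The sum of all 10 was 4772 and 4585 CPM in neuroblast-like cells against 1340 and 1161 CPM in astrocyte-like cells. A large share of Sox4 and Sox11 was not particular to neurons. In endothelial-like cells Sox4 held 51.4% and 52.5% and Sox11 30.1% and 33.2%, of a sum of only 387 and 308 CPM.

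**Figure D2:**
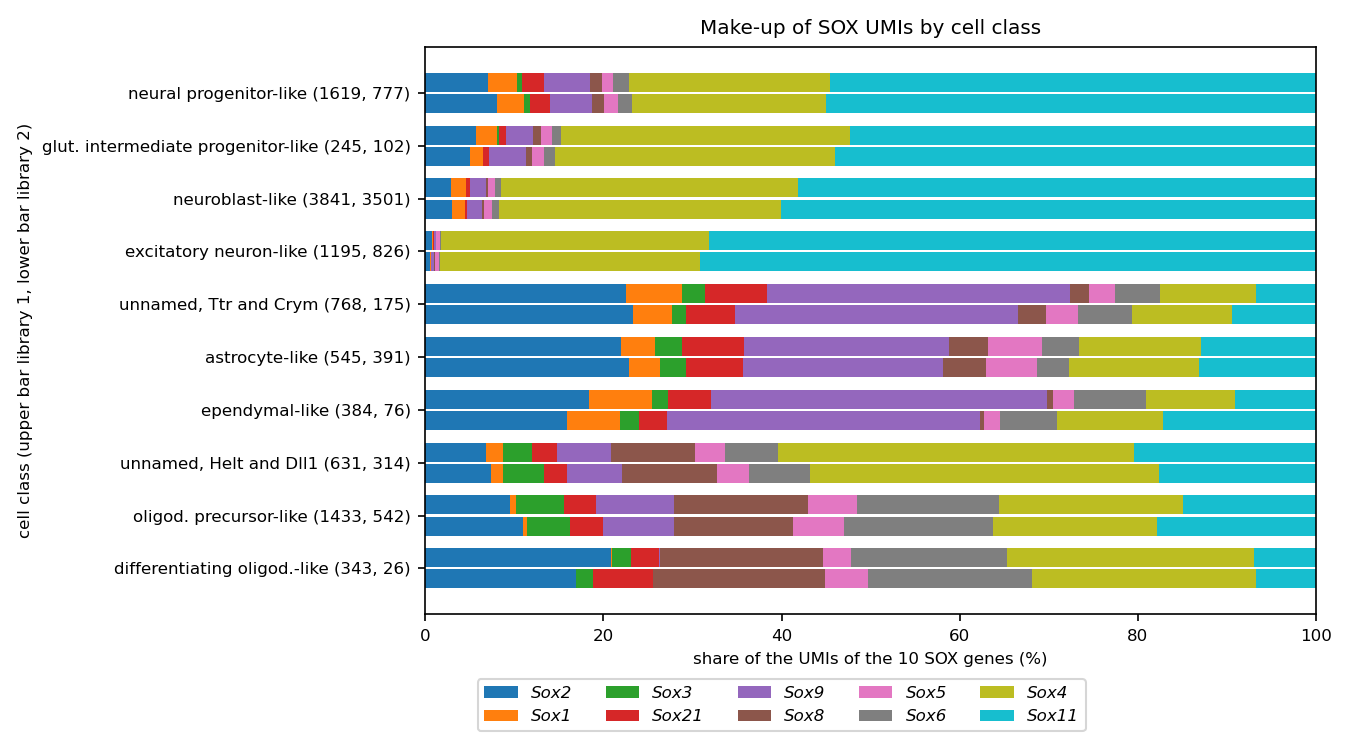
Share of each gene in the UMIs of the 10 SOX genes (horizontal axis, percent) by cell class (vertical axis, upper bar library 1 and lower bar library 2). In excitatory neuron-like cells the bars are nearly filled by Sox4 (30.1% and 29.3%) and Sox11 (68.1% and 69.1%), while in the astrocyte-like bars Sox9 (23.1% and 22.5%) and Sox2 (21.9% and 22.8%) are the widest parts.

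Class sums were compared with the quasi-likelihood test of edgeR, with the library as a block. A gene is called here at a Benjamini-Hochberg adjusted p under 0.05 over all genes tested, a fold change of at least 2 (log2 of 1) and the same sign in both libraries. The standard errors (SE) given are approximate, from the F statistic.

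From neural progenitor-like to neuroblast-like cells, the members parted: Sox4 was higher while Sox3, Sox21 and Sox8 were lower. That is 1 of 10 called higher and 3 of 10 called lower, against 10.3% and 13.4% of the 13446 genes tested. The log2 fold change was 1.23 (SE 0.15, adjusted p = 1.3e-14) for Sox4, -3.22 (SE 0.26) for Sox3, -2.34 (SE 0.15) for Sox21 and -1.94 (SE 0.17) for Sox8. Sox21 was 78.5 and 64.0 CPM in progenitor-like and 17.7 and 10.0 CPM in neuroblast-like cells. Sox3 was 15.8 and 20.7 CPM in the former and 2.37 and 1.23 CPM in the latter, a level of 19 and 9 UMIs. Sox11 at 0.78, Sox2 at -0.67, Sox9 at -0.81, Sox6 at -0.56 and Sox1 at -0.33 on the log2 scale passed the adjusted p but not the fold. Sox2, the factor most used to mark neural stem cells, still had 138 and 135 CPM in neuroblast-like cells, against 216 and 228 CPM in progenitor-like cells. Sox5 had a log2 fold change of 0.01 (SE 0.14). The median over the 10 members was -0.61 against 0.03 over all genes tested. These calls depend on where the classes were cut: at clustering resolution 0.5, where the neural progenitor-like class held 1562 cells in place of 2396 and the neuroblast-like class 2164 in place of 7342, Sox4 had a log2 fold change of 0.52, Sox3 of -0.99, Sox21 of -0.99 and Sox8 of -0.10, none of them called, and with stricter quality limits Sox4 had 0.93.

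The clusters within these classes show where the levels differed. Neural progenitor-like cells were 2 clusters, 1 led by Helt, Gsx2 and Egfr (801 and 349 cells) and 1 led by histone genes and Psrc1 (818 and 428 cells). Sox3 was 24.5 and 34.6 CPM in the first and 5.09 and 3.92 CPM in the second. Sox8 was 63.3 and 59.4 CPM in the first and 15.5 and 13.7 CPM in the second. Sox11 had the opposite order, 909 and 651 CPM in the first and 2641 and 2680 CPM in the second. So the cluster led by histone genes had Sox11 near the level of the neuroblast-like class. Its Sox2 (209 and 194 CPM) was near that of the other progenitor-like cluster (222 and 257 CPM). The name of this cluster is less sure. By the mean log2 ratio of markers to other clusters it scored 1.655 for neural progenitor and 1.299 for neuroblast markers, and 0 of its 10 leading genes were progenitor markers. Sox21 in the neuroblast-like cluster led by Dlx1as was 36.1 and 24.7 CPM, and in the one led by Htr3a it was 6.80 and 2.0 CPM. Sox9 had the same order, at 143 and 144 CPM against 58.8 and 55.6 CPM. The last neuroblast-like cluster, of 1392 and 951 cells, was led by Sst and Npy, which are markers of inhibitory neurons. It had Sox9 at 43.9 and 30.2 CPM, Sox21 at 6.04 and 3.77 CPM and Sox6 at 18.1 and 16.2 CPM. These are levels of clusters, which were not tested against each other.

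**Figure D3:**
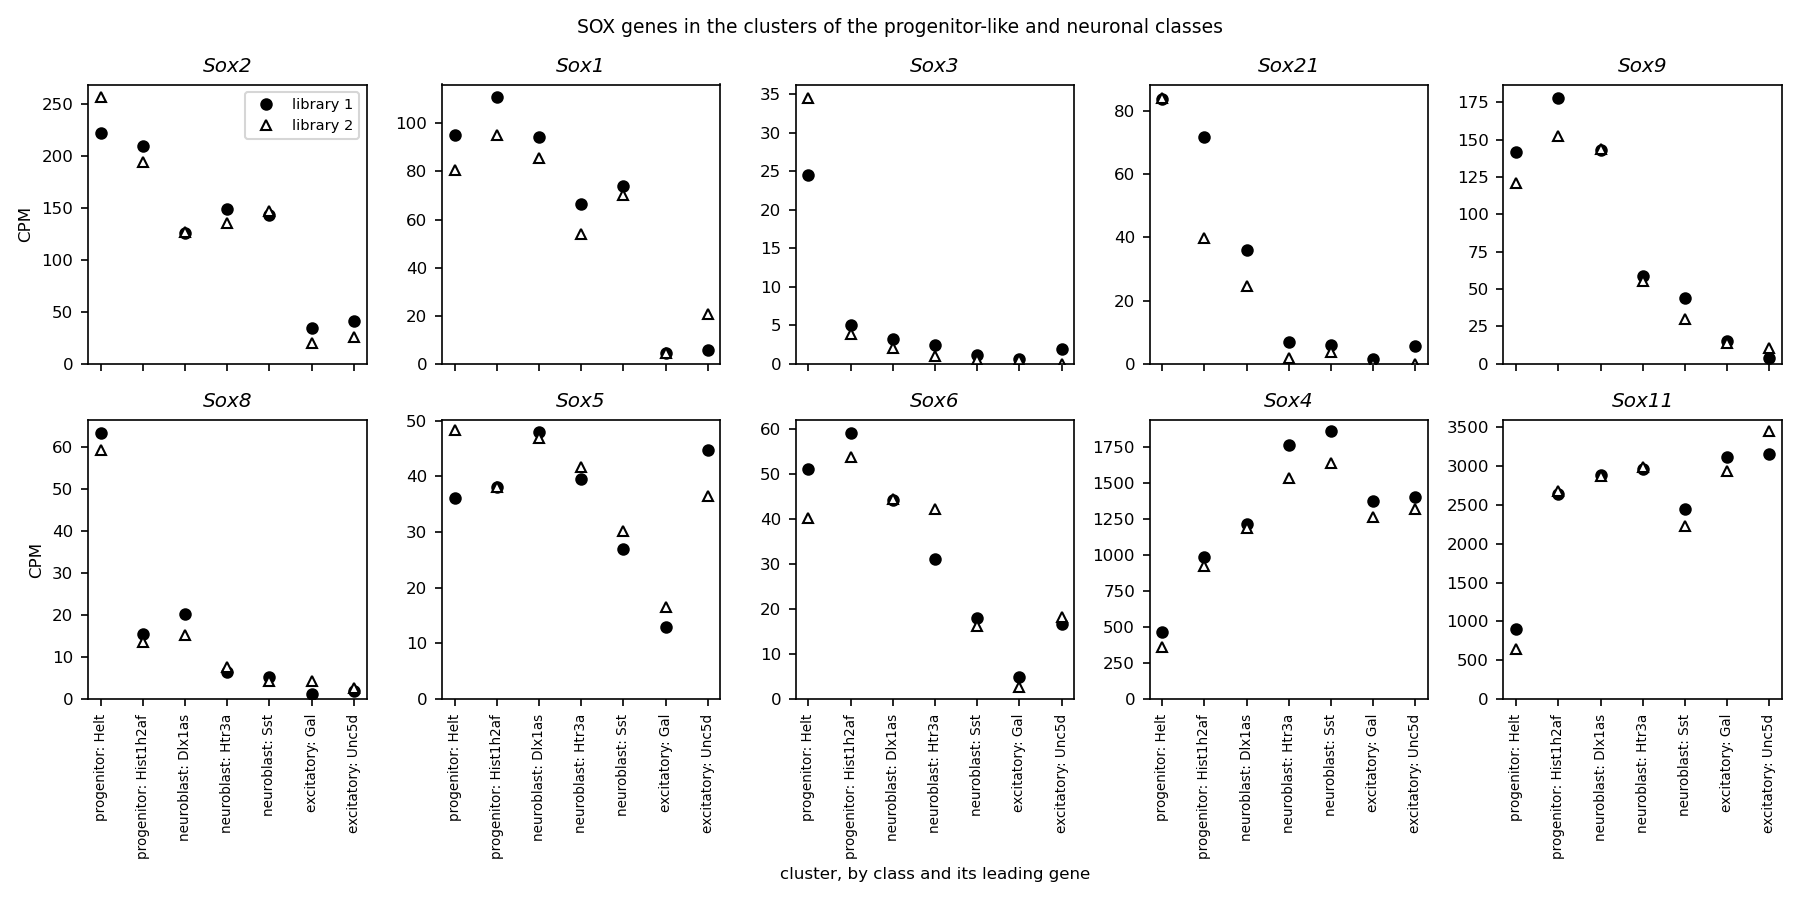
CPM of each SOX gene (vertical axis, from 0, scale by gene) in the clusters of the progenitor-like, neuroblast-like and excitatory neuron-like classes (horizontal axis, by leading gene), with library 1 as filled circles and library 2 as open triangles. Of the 7 clusters shown, the progenitor-like one led by Helt has the highest Sox3 (24.5 and 34.6 CPM) and Sox8 (63.3 and 59.4 CPM) and the lowest Sox11 (909 and 651 CPM).

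Excitatory neuron-like cells, whose clusters had Neurod1 or Neurod6 and Neurod2 among their leading genes, had lower levels of most SOX genes than neuroblast-like cells. None of the 10 members was higher and 7 were lower, against 8.2% and 6.33% of genes tested. Sox1 had a log2 fold change of -3.90 (SE 0.22, adjusted p = 6.3e-70), Sox9 of -2.70 (SE 0.18), Sox6 of -2.66 (SE 0.24), Sox2 of -2.35 (SE 0.15), Sox8 of -2.21 (SE 0.35) and Sox5 of -1.23 (SE 0.18). Sox1 was at 79.3 and 68.6 CPM in neuroblast-like cells and at 4.47 and 6.73 CPM in excitatory neuron-like cells. Sox2 was at 35.1 and 20.9 CPM in the latter. Sox21, the seventh gene called, had 8 UMIs in library 1 and 0 of 2675171 UMIs in library 2. The ratio to neuroblast-like cells was 8.89 in library 1 (exact 95% interval 4.39 to 20.99, counting error only), and in library 2 neuroblast-like cells were at least 8.93-fold higher, against a floor of 3 UMIs. Sox3 was near 0 in both classes, with 3 and 1 UMIs in excitatory neuron-like cells, and was not called (adjusted p = 0.057). It was called with stricter quality limits, at resolution 0.5 and with 4000 variable genes, where its adjusted p was 0.0061 to 0.039. Sox4 (-0.30, SE 0.15, adjusted p = 0.12) and Sox11 (0.04, SE 0.17, adjusted p = 0.89) had no call. The median of the members was -2.28 against -0.05 over all genes. The 2 classes belong to different lineages by their markers (Dlx genes against Neurod genes), so this is a difference between young neurons of 2 kinds and not a course in time.

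The 2 excitatory clusters differed in Sox5. It was 44.8 and 36.5 CPM in the cluster led by Unc5d, with Neurod6 and Neurod2 (205 and 156 cells), and 12.9 and 16.6 CPM in the one led by Gal and Neurod1 (990 and 670 cells). Sox5 is known for its part in deep-layer neurons of the cortex. Sox6 was 16.8 and 18.3 CPM against 4.88 and 2.62 CPM in the same clusters. Sox9 had the other order, 3.73 and 10.4 CPM against 15.5 and 14.0 CPM, and Sox1 was at 5.60 and 20.9 CPM against 4.30 and 4.36 CPM. These clusters were not tested against each other.

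Between glia and neurons most members differed, though not always as whole groups. Against the mean of neuroblast-like and excitatory neuron-like cells, the mean of astrocyte-like and oligodendrocyte precursor-like cells was higher in 7 of 10 members and lower in 2, where 17.3% and 10.6% of all genes were called. The log2 fold changes were 5.52 (SE 0.22) for Sox3, 4.35 (SE 0.15) for Sox8, 3.92 (SE 0.18) for Sox21, 2.84 (SE 0.14) for Sox6, 2.39 (SE 0.11) for Sox9, 1.60 (SE 0.10) for Sox2 and 1.46 (SE 0.12) for Sox5. The 2 lower genes were the 2 members of group C, Sox11 at -3.97 (SE 0.13, adjusted p = 8.1e-188) and Sox4 at -2.75 (SE 0.12). Sox12, also of group C but no member here, had no call, at 0.07 (SE 0.12, adjusted p = 0.68). Among the members Sox1 alone had no call, at -0.13 (SE 0.19, adjusted p = 0.61), and its sign differed between the libraries. The mean hid differences within each side. Sox1 was 51.7 and 40.5 CPM in astrocyte-like and 8.84 and 6.47 CPM in oligodendrocyte precursor-like cells. It was 79.3 and 68.6 CPM in neuroblast-like and 4.47 and 6.73 CPM in excitatory neuron-like cells. The other 2 genes of group B1, Sox2 and Sox3, were called higher. Yet Sox2 overlapped between oligodendrocyte precursor-like (134 and 157 CPM) and neuroblast-like cells (138 and 135 CPM). Sox5 lost its call with stricter quality limits, at 0.91. The other neuronal class planned for this mean, inhibitory neuron-like, was not found at the settings used. Cells with inhibitory neuron markers were within the neuroblast-like class: its cluster led by Sst and Npy scored 2.41 for the neuroblast markers and 2.31 for the inhibitory neuron markers (the mean log2 ratio of the markers to other clusters, which decided the name), and the cluster led by Htr3a had Gad1 among its 10 leading genes.

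Compared with neural progenitor-like cells, astrocyte-like cells had more Sox3 and less Sox1, Sox4 and Sox11, which is 1 of 10 higher and 3 of 10 lower against 18% and 11.2% of genes tested. Sox11 had a log2 fold change of -3.37 (SE 0.19, adjusted p = 8.5e-70) and Sox4 of -1.96 (SE 0.16). Sox3 had 1.04 (SE 0.18), at 15.8 and 20.7 CPM in progenitor-like and 41.1 and 33.7 CPM in astrocyte-like cells, and in library 2 alone it had 0.67. Sox1 had -1.09 (SE 0.15), from 102 and 87.1 CPM to 51.7 and 40.5 CPM. Sox9, known as a driver of the switch from neurons to glia, was 158 and 135 CPM in progenitor-like and 309 and 261 CPM in astrocyte-like cells, a log2 fold change of 0.90 (SE 0.12) that passed the adjusted p and missed the fold. Sox2 was 294 and 265 CPM in astrocyte-like cells, 0.28 (SE 0.12) above progenitor-like cells. Sox5 had 0.85, Sox21 had 0.17 and Sox6 had -0.11, none of them called. Sox8 had 0.45 and was called at resolution 0.5, where it had 1.46. The calls on Sox1 and Sox9 turned on the Ttr and Crym cluster. With that cluster joined to the astrocyte-like class, Sox1 had -0.64 and lost its call, and Sox9 had 1.31 and was called. In the 4 alternatives with a larger astrocyte-like class (doublets kept, stricter quality limits, resolution 2 and 4000 variable genes) the same 2 changes of call occurred. The Ttr and Crym cluster itself had the highest Sox9 (606 and 552 CPM) and Sox2 (401 and 406 CPM) of the 9 neural classes and clusters, and Sox1 at 110 and 75.5 CPM.

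Ependymal-like cells, the ciliated cells that line the ventricles, had less Sox8 and Sox5 than astrocyte-like cells. Of the 10 members 0 were higher and 2 were lower, against 20.6% and 15.6% of genes tested, so the share called was not above that of all genes. Sox8 had a log2 fold change of -3.16 (SE 0.31, adjusted p = 1.7e-23), from 59.1 and 55.4 CPM to 7.81 and 5.80 CPM, the latter 17 and 2 UMIs. Its close relative Sox9 was 464 and 464 CPM in ependymal-like cells, 0.47 above astrocyte-like cells (SE 0.13, not called). Sox5 had -1.60 (SE 0.22), while Sox6, also of group D, had 0.75 (SE 0.18, not called), at 98.8 and 84.1 CPM in ependymal-like cells. So within each of these pairs 1 gene was lower in ependymal-like cells and the other had a positive log2 fold change under the fold limit. Under the fold limit were also Sox3 at -0.92, Sox21 at -0.91, Sox4 at -0.63, Sox1 at 0.62, Sox2 at -0.56 and Sox11 at -0.37. Sox11 was called lower with stricter quality limits (-1.02), and Sox21 was called lower at resolution 2 (-1.01) and with the Ttr and Crym cluster joined to the astrocyte-like class (-1.02). Library 2 held 76 ependymal-like cells, and its Sox11 (226 CPM against 112 CPM in library 1) showed the widest gap between libraries of the 10 genes in this class.

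Oligodendrocyte precursor-like cells, marked by Pdgfra and Cspg4, had more Sox6 and Sox8 and less Sox1, Sox9 and Sox2 than astrocyte-like cells. That is 2 of 10 higher and 3 of 10 lower, against 9.44% and 11.6% of genes tested. Sox6 was 222 and 240 CPM against 55.6 and 41.4 CPM, a log2 fold change of 2.14 (SE 0.15, adjusted p = 4.6e-47). Sox8 was 210 and 191 CPM against 59.1 and 55.4 CPM, with 1.72 (SE 0.14). Sox1 had 8.84 and 6.47 CPM and a log2 fold change of -2.63 (SE 0.22), Sox9 had 122 and 114 CPM with -1.36 (SE 0.13), and Sox2 had 134 and 157 CPM with -1.05 (SE 0.13), or -0.86 in library 2 alone. Sox3, of the same group B1 as Sox1 and Sox2, had the other sign: 76.1 and 69.0 CPM against 41.1 and 33.7 CPM, 0.87 (SE 0.16, adjusted p = 6.7e-07), under the fold limit. Sox21 at -0.83, Sox4 at 0.56 and Sox11 at 0.41 were not called. Sox5 had a log2 fold change of 0.01 (SE 0.15) at 77.4 and 82.4 CPM. In the Helt and Dll1 cluster, Sox8 (225 and 237 CPM) and Sox3 (76.2 and 101 CPM) were at or above the level of oligodendrocyte precursor-like cells, and Sox4 was far above it, at 947 and 869 CPM against 290 and 262 CPM. Sox10, the third gene of group E and no member here, was 395 and 389 CPM in oligodendrocyte precursor-like cells, 169 and 195 CPM in that cluster and 9.20 and 3.85 CPM in astrocyte-like cells.

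Differentiating oligodendrocyte-like cells, with Mbp and Enpp6, were 343 cells in library 1 and 26 in library 2, so a second fit with a lower limit of cells, added after seeing the data, was used for them. Of the 10 members 0 were higher and 4 were lower than in oligodendrocyte precursor-like cells, against 5.83% and 11.5% of 13615 genes. Sox9 went from 748 UMIs to 3 in library 1 and from 265 UMIs to 0 of 175523 in library 2. In library 1 the ratio was 108 (exact 95% interval 36.7 to 523, counting error only), and in library 2 precursor-like cells were at least 6.69-fold higher, against a floor of 3 UMIs. Sox8, its close relative, had 557 and 40 UMIs (211 and 228 CPM), a log2 fold change of 0.28 (SE 0.14, adjusted p = 0.15). Sox3 (-1.36, SE 0.22, adjusted p = 1e-08) and Sox11 (-1.27, SE 0.23, adjusted p = 7.5e-07) were lower, and the call on Sox11 was lost with DESeq2 (adjusted p = 0.064). Sox1 had 4 UMIs in library 1 and 0 in library 2, against 54 and 15 in precursor-like cells. Its ratio in library 1 was 5.83 (exact 95% interval 2.15 to 22.2), and in library 2 a difference was not detectable at this depth, although the fit called it. With doublets kept the call on Sox1 was lost (adjusted p = 0.095). Sox2 had 632 and 35 UMIs (240 and 199 CPM), a log2 fold change of 0.90 (SE 0.15, adjusted p = 1.6e-08) under the fold limit. Sox6 had 0.04 (SE 0.14), Sox4 had 0.39, Sox21 had -0.21 and Sox5 had -0.80, none of them called.

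**Figure D4:**
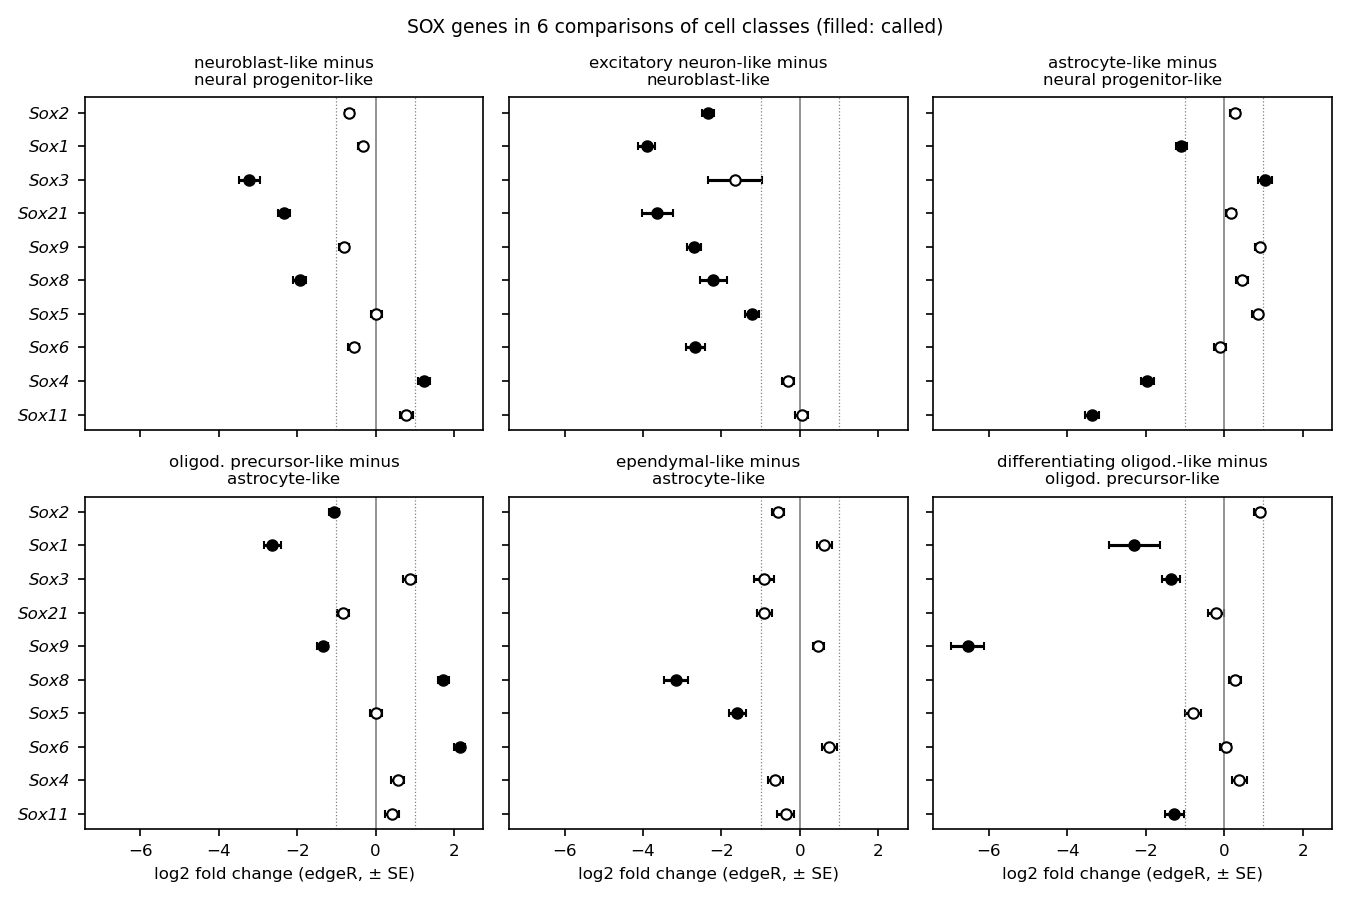
Log2 fold change of each SOX gene (horizontal axis, bars ± approximate SE, edgeR) in 6 comparisons of cell classes (panels), with called genes filled and the fold limit of 2 dotted. Within group E, Sox9 lies at the far left in differentiating oligodendrocyte-like cells while Sox8 lies near 0, and in ependymal-like cells Sox8 is at the left while Sox9 is near 0.

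Over the 9 neural classes and clusters, the spread of a member differed widely. The highest mean level was 158 times the lowest for Sox3, 109 times for Sox21 and 86.1 times for Sox8, but 4.37 times for Sox5. Sox1 had the most overlap: 7 of its 8 neighbouring pairs overlapped between the libraries. Its level was higher in library 1 in all of these classes and clusters except excitatory neuron-like cells. Within each library the order was the same, apart from 2 changes. The Ttr and Crym cluster moved, and oligodendrocyte precursor-like and excitatory neuron-like cells, the lowest, changed places. The pattern of Sox4 over the 12 classes of the first fit, on the log2(CPM + 1) scale, correlated with that of Sox11 at a Pearson r of 0.95 in library 1 and 0.92 in library 2. Sox8 and Sox9 had 0.48 and 0.67, and Sox2 and Sox3 had 0.75 and 0.71. These describe 12 classes that share their library, some of them outside the neural lineage. By the same measure the 3 genes most like Sox11 out of 10141 were Kat6b, Srrm4 and Hnrnph3 (the lower r of the libraries 0.96, 0.93 and 0.93), and those most like Sox4 were Eif4g2, Rrn3 and Ddah2 (0.94, 0.93 and 0.93). Those most like Sox2 were Rgs20, 2610316D01Rik and Fzd3 (0.93, 0.92 and 0.90). Sox9 was most like Taf11, Mpdz and Igsf11 (0.89, 0.88 and 0.87), and Igsf11 was also the first for Sox1 (0.88), before Alms1 and Srsf10. For Sox8 they were Idi1, Erg28 and Zdhhc2 (0.87, 0.82 and 0.82), for Sox6 Sqle, Ncam2 and 2610316D01Rik (0.87, 0.85 and 0.84), for Sox5 Pantr1, 2810001G20Rik and Adgrb3 (0.89, 0.89 and 0.88) and for Sox3 Asrgl1, Xylt1 and Pcdh10 (0.86, 0.82 and 0.82). Sox21 was most like Gm4675 (0.87), a transcript annotated on the opposite strand across it, then Sox2 (0.86) and Rfx4 (0.85). No source used here says whether counting used the strand. Sox21 and Gm4675 therefore cannot be told apart with certainty.

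Cells were thinned to 1500 UMIs each, and shallower cells left out, to compare the share of cells with at least 1 UMI. Sox11 was seen in 94.4% of 2996 neuroblast-like cells of library 1 and 94.8% of 2753 in library 2, and in 97.4% and 96.0% of excitatory neuron-like cells. In neural progenitor-like cells the share was 80.0% and 75.7%, and in astrocyte-like cells 20.5% and 18.0%. Sox9 was seen in 45.4% and 41.5% of ependymal-like cells, 35.6% and 31.7% of astrocyte-like cells and 0 of 341 differentiating oligodendrocyte-like cells of library 1. Without thinning it was seen in 3 of 343 of those cells (0.88%, exact 95% interval 0.18% to 2.54%), and in 0 of 26 in library 2, where the interval reaches 13.2%. The interval is for cells with a UMI, not for cells that express the gene. Sox8 was seen in 26.7% and 26.5% of oligodendrocyte precursor-like cells. Without thinning the shares were higher, at 52.3% and 50.2% for Sox8 in those cells and 72.5% and 69.6% for Sox2 in astrocyte-like cells (38.2% and 35.5% thinned). The share in cells outside the neural lineage served as the background. In microglia-like cells (85 and 1808 thinned cells, with median depths before thinning of 3108 and 3673 UMIs) Sox2 was seen in 0% and 0.11%, Sox9 in 0% and 0.11% and Sox8 in 0% and 0.11%. Sox11 was seen there in 4.71% and 2.71% of cells and Sox4 in 20% and 14.4%. Sox4 thus outnumbered Sox11 in microglia-like cells (139 and 108 CPM against 71.1 and 24.4 CPM), where in neuroblast-like cells the order was the reverse. Sox4 was also seen in 28.4% and 20.2% of endothelial-like cells, and Sox9 in 3.92% and 4.84% of them. The background of Sox11 was higher there, at 6.86% and 11.3%, and in pericyte-like cells, at 13.1% and 7.69%. Its share in ependymal-like cells, 12.3% and 9.43%, was no higher than in pericyte-like cells of library 1.

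**Figure D5:**
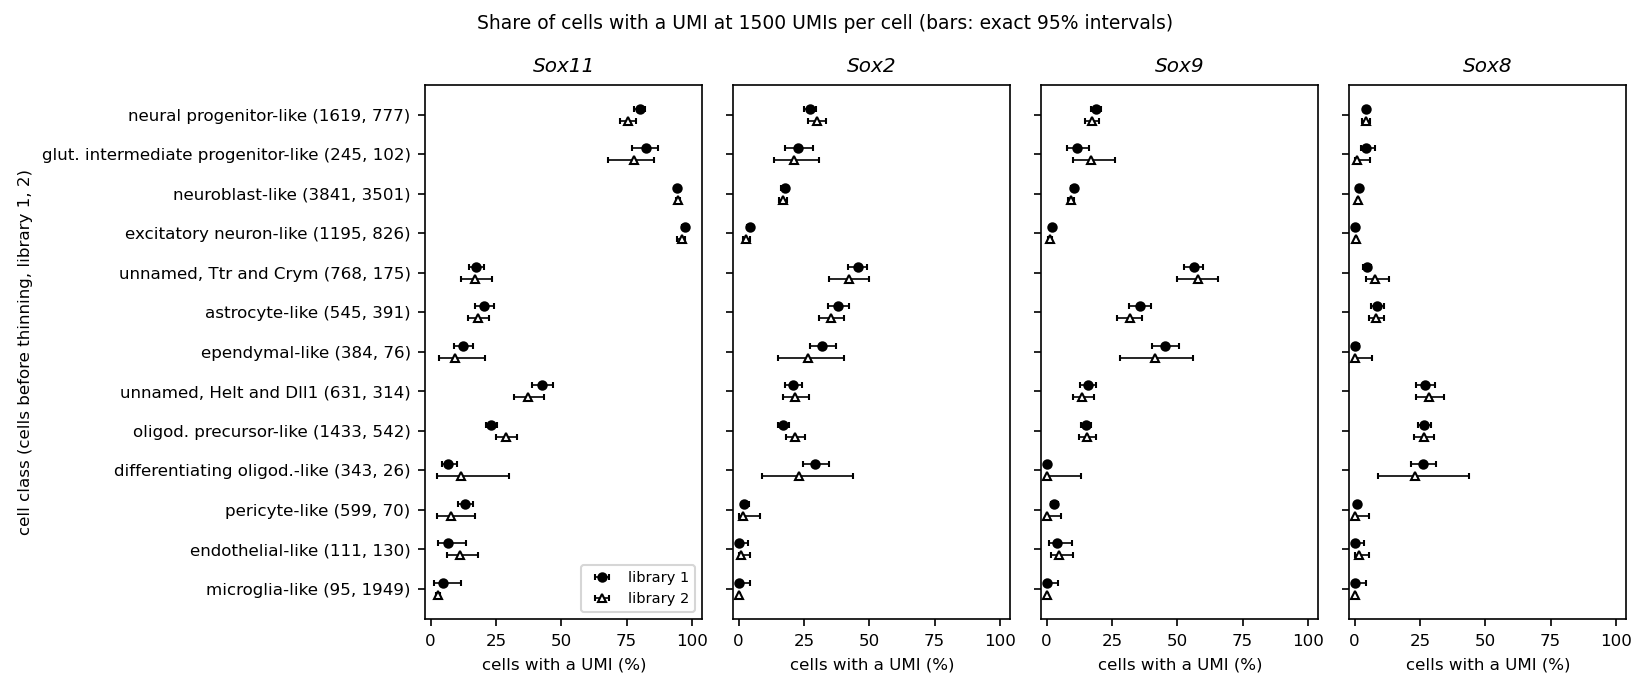
Share of cells with at least 1 UMI of Sox11, Sox2, Sox9 or Sox8 (horizontal axes, percent, cells thinned to 1500 UMIs) by cell class, with library 1 filled and library 2 open and exact 95% intervals that cover counting error only. Sox11 is in over 90% of neuroblast-like and excitatory neuron-like cells, and Sox9 is at 0% in differentiating oligodendrocyte-like cells of both libraries.

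Single cells often held several members. At 1500 UMIs a neural progenitor-like cell had a mean of 2.27 and 2.18 of the 10 genes, and 39.9% and 38.5% of these cells had 3 or more. In excitatory neuron-like cells 8.14% and 7.11% had 3 or more, although the mean was 1.92 and 1.86, with Sox4 seen in 83.5% and 80.6% of them. Microglia-like cells had a mean of 0.27 and 0.18. Within astrocyte-like cells, Sox2 and Sox11 were seen together in 0.81 and 0.705 times the share that their single shares would give, on 34 and 17 cells, and Sox4 with Sox9 in 0.66 and 0.80 times, on 25 and 20 cells. Sox4 and Sox11 were seen together 1.23 and 1.34 times as often as that product, on 27 and 19 cells. Within neuroblast-like cells Sox6 and Sox9 were together 1.79 and 1.39 times as often, on 24 and 17 cells. These ratios rest on few cells of 1 library each and carry no test.

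Transcripts that overlap a member did not always follow it. Sox2 lies inside Sox2ot, a long non-coding transcript of the same strand on chromosome 3. From neural progenitor-like to neuroblast-like cells Sox2ot was called higher (1.30, SE 0.12, adjusted p = 3.5e-25; 166 and 146 CPM against 65.3 and 63.1 CPM), where Sox2 had -0.67. In excitatory neuron-like cells both were lower, Sox2ot by a log2 fold change of -4.72 (SE 0.20). Sox1ot, which overlaps Sox1 on the same strand of chromosome 8, was called higher in ependymal-like than in astrocyte-like cells (1.66, SE 0.17; 188 and 174 CPM against 43.2 and 55.9 CPM), and Sox1 had 0.62. In oligodendrocyte precursor-like cells Sox1ot was at 1.80 and 0.86 CPM, low as Sox1 was. UMIs from bases that 2 transcripts of the same strand share cannot be assigned to either with certainty.

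Of 9 other SOX genes listed beside the members, 6 could be tested. Sox17 and Sox18, known in the vessel wall, stood at 175 and 178 CPM and at 373 and 322 CPM in endothelial-like cells and at no more than 3.22 CPM in any of the 9 neural classes and clusters. Sox7 was 62.2 and 51.1 CPM in endothelial-like cells. It was also called in the 3 comparisons that involve astrocyte-like cells and another single class, on 13 and 10 UMIs in astrocyte-like cells against 2 and 0 in neural progenitor-like and 0 in oligodendrocyte precursor-like and ependymal-like cells. Sox12 was called lower in ependymal-like than astrocyte-like cells (-1.83, SE 0.32), Sox13 lower in oligodendrocyte precursor-like than astrocyte-like cells (-1.45, SE 0.54), and Sox18 higher in neuroblast-like than progenitor-like cells on 6 and 5 UMIs against 0 and 2. Sox10 was called in 3 comparisons, with a log2 fold change of 5.74 (SE 0.20, adjusted p = 1.6e-180) in oligodendrocyte precursor-like over astrocyte-like cells. POU and NFI factors, which bind DNA beside SOX proteins, were followed through 10 genes. From oligodendrocyte precursor-like to differentiating oligodendrocyte-like cells 7 of the 10 were lower and 0 higher, beside 11.5% and 5.83% of all genes, with a median log2 fold change of -1.48 against -0.09 over all genes. Among them were Pou3f1 (-3.53, SE 0.32), Pou3f2 (-2.56, SE 0.28) and Nfia (-1.58, SE 0.21). In excitatory neuron-like over neuroblast-like cells 3 of 10 were higher, with Nfia at 1.88 (SE 0.17), and 2 were lower, with Pou3f4 at -3.96 (SE 0.22), beside 8.2% and 6.33% of all genes.

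Also listed were 5 genes known as targets of SOX proteins in neural cells. Tubb3, a tubulin of young neurons and known target of Sox4 and Sox11, was called higher in neuroblast-like than progenitor-like cells (1.74, SE 0.15, adjusted p = 7.9e-28; 2354 and 2482 CPM against 702 and 770 CPM) and lower in astrocyte-like than progenitor-like cells (-5.01, SE 0.21). Tubb3 was also called higher in oligodendrocyte precursor-like (1.42, SE 0.22) and ependymal-like (1.29, SE 0.26) than in astrocyte-like cells. Neither Sox4 nor Sox11 was called in those comparisons. Tead2 was called lower in neuroblast-like than progenitor-like cells (-1.31, SE 0.14), where Sox4 was called higher (1.23, SE 0.15). Mmd2, a known target of Sox9 with NFIA, was 878 and 666 CPM in astrocyte-like cells and was called higher there than in progenitor-like cells (3.17, SE 0.13, adjusted p = 1.5e-131). It was lower in ependymal-like than astrocyte-like cells (-3.01, SE 0.15), where Sox9 was not. Mmd2 was called higher in excitatory neuron-like than neuroblast-like cells (3.58, SE 0.17), where Sox9 was called lower (-2.70, SE 0.18). In oligodendrocyte precursor-like against astrocyte-like cells both were called lower, Mmd2 at -3.38 (SE 0.13) and Sox9 at -1.36 (SE 0.13). Nes, the intermediate filament nestin and a target of group B1 factors, was lower in neuroblast-like than progenitor-like cells (-1.56, SE 0.17, adjusted p = 1.8e-18). It was also lower in excitatory neuron-like than neuroblast-like cells (-2.22, SE 0.35), which are of different lineages by their markers. Apcdd1, also of this list, was called lower in the mean of glia than of neurons (-1.41, SE 0.20), where Sox9 was called higher (2.39, SE 0.11). It was called higher in excitatory neuron-like than neuroblast-like cells (1.225, SE 0.21). In ependymal-like against astrocyte-like cells it was called lower (-2.12, SE 0.63). Between astrocyte-like and progenitor-like cells it was not called (-0.25, SE 0.31). Of the 5 targets, 1 was higher and 3 lower in neuroblast-like than in progenitor-like cells, where 10.3% and 13.4% of all genes were called. In astrocyte-like cells 1 was higher and 1 lower, beside 18% and 11.2% of all genes.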

How the data were processed

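Single cells of mouse brain were measured in 2 libraries with the 3′ kit of 10x Genomics. The authors' deposited matrices hold counts of UMIs per gene and barcode, made with Cell Ranger 6.1.2 and mm10 as the submitters' processing notes list them. The smallest barcode held 500 UMIs. Barcodes under 500 genes or over 10% mitochondrial UMIs were dropped. Scrublet marked 626 doublets in library 1 and 0 in library 2, so there the 844 barcodes of highest score (the expected 6%) were taken out. Counts scaled to 10000 per cell were clustered in scanpy 1.11.5 (Python 3.11.15, 2000 variable genes, 30 components, 15 neighbours, Leiden resolution 1), leaving out all genes named Sox, the partner and target lists, and ribosomal and mitochondrial genes. Clusters were named from 23 marker lists with no SOX gene. A cluster needed at least 3 markers at 2-fold and 20 CPM, and stayed unnamed where its 10 leading genes held more markers of another class than of its own, or where over 95% of its cells came from 1 library at under 0.6 of the median UMI count. These limits were set after seeing the data. The members and lists were chosen with earlier results of these data known.

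UMI sums per library and class were tested with edgeR 4.0.16 in R 4.3.3 (glmQLFit, glmQLFTest, TMM, filterByExpr, two-sided, Benjamini-Hochberg), with class and library in the model. The 12 classes with at least 40 cells in each library shared 1 fit with 11 residual degrees of freedom. The second fit, at 20 cells, had 14 classes and 13 residual degrees of freedom. Genes used for clustering or naming were not tested, though tested genes can correlate with them. Of 8 comparisons listed, 7 were run, since no inhibitory neuron-like class was found. Named genes are every member in every comparison, called genes of the other lists (named where described), and the 3 genes with the most similar pattern to a member among those with at least 20 CPM in 1 class. Simulated counts for 12260 genes, with 200 changed 4-fold between neuroblast-like and neural progenitor-like cells, gave 199 of them back and 1 false call. All other genes had the same mean level in every class, and the changed genes were not drawn from those of lowest level. So the simulation does not give the error rate for classes that differ in many genes. Alternatives were DESeq2 1.42.0, RLE scaling, no filter, no library block, a log2 threshold of 2, other clusterings and each library alone. Intervals are exact and cover counting error only. How strand and cells were called upstream is not given. Sequences were read from GENCODE M21 on GRCm38, the assembly of mm10, and gene positions were matched by gene identifier.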

Additional observations from a re-analysis of the deposited data

How the results depend on the processing

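Across 70 fold changes (10 members in 7 comparisons) and 10 alternatives with a test, 700 values were computed. None of them reversed a called sign, 674 kept the side of the call, 14 lost it and 12 gained it. Counts of genes called stayed within 1.5 times the first count except with a log2 threshold of 2 and, in 1 comparison, at resolution 0.5. With the log2 threshold of 2 they were 1229 (neuroblast-like against neural progenitor-like), 872 (excitatory neuron-like against neuroblast-like), 1610 (astrocyte-like against neural progenitor-like), 1426 (oligodendrocyte precursor-like against astrocyte-like), 2558 (ependymal-like against astrocyte-like), 1671 (glia against neurons) and 1185 (differentiating against precursor). At resolution 0.5 the first of these had 932 calls against 3184 at resolution 1, and the cause was not tested. Without the replicate block that comparison had 3189 calls, and leaving the block out changed no call on a member. The libraries share a number with nothing else, so the block stands for the library alone. With 1 library left out no residual degrees of freedom remain, so each library gives a fold change with no test. Of 35 called fold changes of members, 2 were under the fold limit in 1 library: in library 2 Sox3 had 0.67 in astrocyte-like against progenitor-like cells and Sox2 had -0.86 in precursor-like against astrocyte-like cells. RLE scaling moved the members' fold changes by a median of 0.20 in ependymal-like against astrocyte-like cells and by under 0.1 in the other comparisons, and it took Sox1 to -0.998 in astrocyte-like against progenitor-like cells, just under the limit. Sox5 lost its call between glia and neurons with stricter quality limits (0.91). Of 70 levels, 17 moved by over 1.5 times in at least 1 clustering, 6 of them under 10 CPM. Thinning to 1000 UMIs in place of 1500 moved the share of ependymal-like cells of library 2 with Sox11 from 9.43% of 53 cells to 26.9% of 67 cells. The 2 libraries and, for differentiating oligodendrocyte-like cells, the 175523 UMIs of library 2 limit what can be seen.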

Other observations

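A class with inhibitory neuron markers was found in 4 of the 5 other clusterings and not at the settings used, so its levels belong to no comparison. At resolution 2 it held 535 and 412 cells. Sox6, known for its part in interneurons born in the medial ganglionic eminence, stood there at 15.1 and 28.3 CPM, against 34.2 and 37.8 CPM in neuroblast-like cells of the same clustering. Sox11 was 2307 and 1825 CPM against 2834 and 2883 CPM, and Sox4 was 1669 and 1313 CPM against 1571 and 1469 CPM. With 4000 variable genes the class held 317 and 264 cells, with Sox6 at 16.2 and 27.9 CPM, Sox2 at 64.7 and 30.3 CPM (138 and 138 CPM in neuroblast-like cells) and Sox11 at 2836 and 2256 CPM. The level of Sox2 in this class thus depended on which cells were drawn into it: at resolution 2 it was 153 and 112 CPM.

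Cajal-Retzius cell-like cells, 37 and 97 in number and marked by Reln and Lhx1, had little Sox4 and Sox11 for a neuronal class. Sox11 had 31 and 36 UMIs there (119 and 52.1 CPM) and Sox4 had 36 and 71 UMIs (138 and 103 CPM). In excitatory neuron-like cells the same genes stood at 3120 and 3015 CPM and at 1380 and 1276 CPM. The median depth of these cells was 6952 and 6828 UMIs, above that of excitatory neuron-like cells (3423 and 3296 UMIs). Pericyte-like cells had Sox5 at 36.2 and 22.9 CPM, of which library 2 saw 6 UMIs.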
